A study of Mus musculus with 6 samples.

Results

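Autophagy is the process by which a cell wraps part of its own contents in a double membrane and delivers it to the lysosome. The 35 genes described here encode its core machinery and its cargo receptors. They are 16 named genes (Ulk1, Ulk2, Becn1, Pik3c3, Rb1cc1, the LC3 and GABARAP genes, the WIPI genes and 4 receptors) and the 19 genes whose symbol starts with Atg and a digit and which the annotation lists as protein-coding. All 35 reached at least 10 counts in 3 or more libraries, as did 18505 of the 55401 rows of the table. The choice used gene names and that count minimum, and no difference between groups, though it was made with earlier results of these data known. It includes Atg4a-ps, which the annotation lists as protein-coding although its name marks a pseudogene. Reads could be split between Atg4a and Atg4a-ps, so the values of both are uncertain.

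Autophagy starts when the ULK1 kinase complex, with FIP200 (gene Rb1cc1), ATG13 and ATG101, activates the class III PI3-kinase complex that marks the forming membrane with the lipid PI3P. Vesicles carrying ATG9 supply membrane, ATG2 proteins transfer lipids into it, and WIPI proteins bind PI3P. Conjugation enzymes related to those of ubiquitin then attach LC3 and GABARAP proteins, the ATG8 family, to the membrane, where receptors such as p62 (gene Sqstm1) hold the cargo. In macrophages the same conjugation proteins also serve in the uptake of microbes and dead cells. RNA levels do not measure autophagic flux, which also depends on phosphorylation and on turnover of these proteins.

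The RNA came from F4/80+ cells, labelled as macrophages, of mouse liver tumours. Each tumour had grown for 14 days from Hepa 1-6 cells, a mouse hepatoma line, placed in the right lobe of the liver. In 3 control libraries the genotype label is WT Control, and in 3 Sms-OE libraries the injected tumour cells carried Sms, the gene of spermine synthase, overexpressed through a lentivirus. The labels name no treatment beyond this, do not describe a control vector, give no mouse strain, sex or age, and do not say if the replicates are separate mice. The p-values therefore reflect the spread between 3 libraries a group, which may be technical.

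Libraries held 49833764 to 58154006 estimated counts. Overexpression was in the injected cells. In the F4/80+ cells Sms stood at 26.0, 28.3 and 26.2 CPM in the control libraries and at 32.9, 33.2 and 33.2 in the Sms-OE libraries. CPM are counts scaled to a common library size. Sms was called higher without overlap (log2 0.30 ± 0.09 SE, adjusted p = 0.0382 in edgeR's quasi-likelihood test, described below). The 12 macrophage markers summed to 7520 to 7671 CPM in controls and to 7544 to 8769 in Sms-OE, with Adgre1, the gene of F4/80, at 449 ± 105 and 570 ± 78.2 CPM (SD, n = 3 each). Of these 12 markers 2 rose (Itgam and Cd14) and 4 fell (Cd68, C1qa, C1qb and C1qc). For all markers, rose, fell and passed mean an adjusted p under 0.05 in edgeR's test, described below. Of all genes tested, 12.5% were called higher and 14.3% lower, and small counts in these short lists can lie near those shares. Markers of other cells were also present. The 12 hepatocyte markers summed to 1011 to 1350 CPM in controls and to 685 to 934 in Sms-OE, and 10 of them fell. Neutrophil markers summed to 3815 to 6619 and 2726 to 4684, with overlap. Of these 10 markers 2 rose (Elane and Mpo) and 0 fell. Dendritic cell markers summed to 729 to 903 and 559 to 613. Of these 8 markers 1 rose (Siglech) and 4 fell (Clec9a, Cd209a, Itgax and Ccr7). Fibroblast and stellate cell markers summed to 77.0 to 95.8 and 109 to 149, and 2 of the 7 rose (Col1a2 and Dcn). The 4 hepatoma markers summed to 63.5 to 77.9 and 48.8 to 69.4. Among them Gpc3 fell, and Igf2 was at 0 in every library. The sums of T and NK cell markers (337 to 523 and 404 to 560) and of B cell markers (24.4 to 27.3 and 23.0 to 31.6) overlapped between groups. In these lists only Cd4 passed, and it rose. Endothelial markers summed to 136 to 149 and 110 to 149, mostly from Pecam1, while 4 of the 6 fell (Kdr, Tek, Stab2 and Clec4g) and 1 rose (Cdh5). Haemoglobin genes took 0.485% and 0.512% of counts in Sms-OE replicates 2 and 3 and at most 0.0225% in the other libraries. Mitochondrial genes took 4.99% to 7.13% in controls and 2.16% to 3.12% in Sms-OE. The part of these differences in the results below was not tested. In bulk RNA, fewer cells of a type and less RNA per cell cannot be told apart.

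Upstream sequences are shown for Atg2a and Ulk1, which had the largest rises, for Sqstm1, a much-used autophagy gene whose RNA difference did not pass the test, and for the CLEAR motif, which the lysosomal and autophagy regulators TFEB, TFE3 and MITF bind. RefSeq windows on GRCm38.p6, from 250 bases before to 50 after the annotated start, were matched for 28 of the 35 genes (32 windows). Atg12, Atg16l1, Atg4a-ps, Becn1, Map1lc3a, Pik3c3 and Rb1cc1 had no entry. The 100 bases directly upstream of the starts of Atg2a (chr19:6241568-6241667, plus strand), Ulk1 (chr5:110810082-110810181, minus strand) and Sqstm1 (chr11:50210821-50210920, minus strand) read 5′ to 3′ as follows, with CG dinucleotides in capitals.
Atg2a: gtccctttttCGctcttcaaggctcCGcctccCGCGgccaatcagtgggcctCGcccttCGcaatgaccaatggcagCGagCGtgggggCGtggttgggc
Ulk1: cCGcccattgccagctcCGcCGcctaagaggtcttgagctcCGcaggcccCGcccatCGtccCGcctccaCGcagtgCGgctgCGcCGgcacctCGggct
Sqstm1: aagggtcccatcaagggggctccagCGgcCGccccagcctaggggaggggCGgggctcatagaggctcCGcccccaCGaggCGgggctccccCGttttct
The 3 stretches hold 9, 12 and 7 CG dinucleotides, and the 300-base windows of the listed genes held a median of 20, against 18 over the windows of tested genes.

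The CLEAR motif was searched as GTCACGTG on both strands. It lay in the windows of 3 of the 28 genes (10.7%), against 4.35% of 11729 tested genes with a window and 2.25% of all 32851 windows. The 3 genes were Atg3, whose enzyme passes LC3 to its lipid, Atg7, whose enzyme activates LC3 before that step, and Atg14, whose match overlaps the start itself. The RefSeq start of Atg14 lies within the gene as annotated here. The matches in Atg3 begin 96 and 73 bases before its start (chr16:45158713-45158760 and chr16:45158736-45158783, plus strand). The match in Atg7 begins 134 bases before a RefSeq start that lies within the gene as annotated here (chr6:114670942-114670989, plus strand). Capitals mark the motif, with 20 bases on each side.
Atg3, first match: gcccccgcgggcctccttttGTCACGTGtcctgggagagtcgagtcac
Atg3, second match: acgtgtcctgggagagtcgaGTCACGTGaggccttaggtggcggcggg
Atg7: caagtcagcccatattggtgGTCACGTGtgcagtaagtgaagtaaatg
Each CLEAR match contains the palindromic E-box CACGTG, which lay in 4 of the 28 genes (14.3%, Atg5 being the other) and in 11% of tested genes. The antioxidant response motif TGACNNNGC lay in Atg13, Map1lc3b, Tax1bp1 and Ulk2 (14.3%), against 16.8% of tested genes. The amino acid response motif TGATGNAA and the forkhead motif GTAAACA lay in the windows of 0 of the 28 genes, against 2.83% and 3.21% of tested genes. Of the 8 genes with a window that were called higher, 0 held any of these letters, which describes this window alone.

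In the F4/80+ cells of Sms-OE tumours, 10 of the 35 autophagy genes were higher and 1 was lower at an adjusted p under 0.05, and 24 did not pass (edgeR's quasi-likelihood test, Benjamini-Hochberg over all 18277 genes tested). The genes that rose were Atg2a, Ulk1, Wipi1, Atg9a, Atg16l2, Atg16l1, Optn, Wipi2, Rb1cc1 and Atg2b, and the gene that fell was Gabarap. Of all genes tested, 26.9% passed in either direction, 12.5% higher and 14.3% lower, so the share of the autophagy genes called higher (28.6%) was above that background and the share called lower (2.86%) below it. The log2 fold changes of the 35 genes ran from -0.87 to 1.14, with a median of 0.03 against a median near 0 over all genes, and 19 were positive and 16 negative. In 13 genes every Sms-OE library lay above every control library, and in 5 every one lay below, against 20.8% and 23.3% of all genes. The plot of levels by library shows the values behind these counts.

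**Figure D1:**
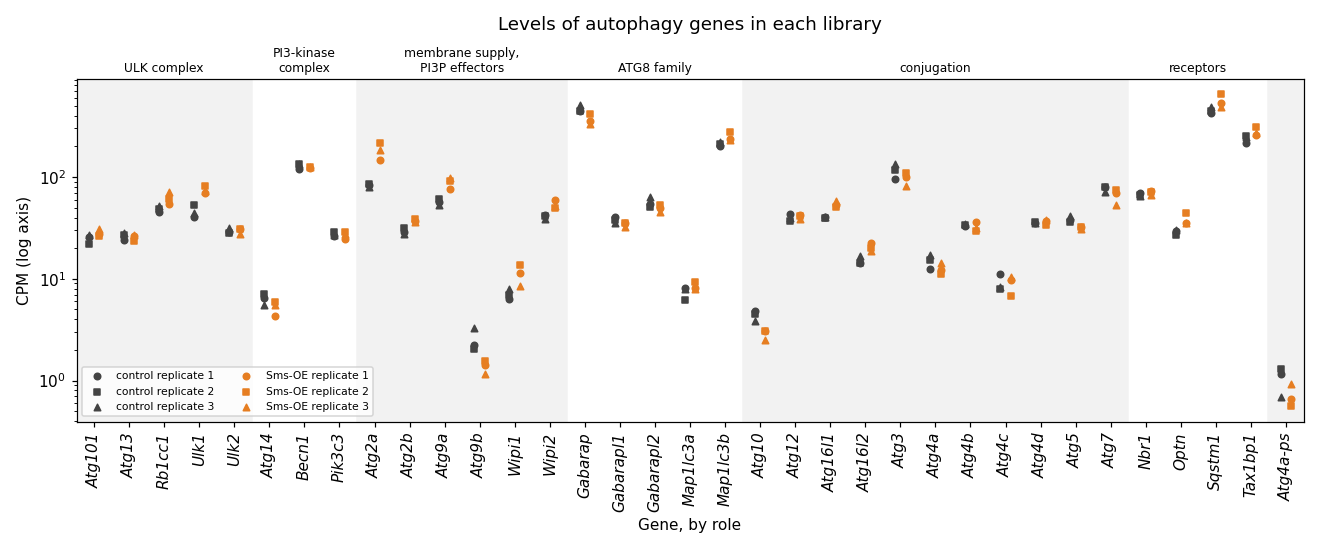
Level of each of the 35 genes in each library, in CPM on a log axis, grouped by role, with control libraries in dark grey and Sms-OE libraries in orange. The groups stand apart most for Atg2a (80.3 to 85.4 CPM in controls and 148 to 216 in Sms-OE) and overlap for most conjugation enzymes.

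The count of 10 was lower in each fit that left out 1 library. It was 5 without control replicate 1, 4 without control replicate 2, 5 without control replicate 3, 7 without Sms-OE replicate 1, 5 without Sms-OE replicate 2 and 8 without Sms-OE replicate 3. Over all genes, rises numbered 2293 of 18277 with all libraries. Without control replicate 1, 2 or 3 they numbered 1539 of 19148, 1366 of 19183 and 1498 of 19203. Without Sms-OE replicate 1, 2 or 3 they numbered 2015 of 18967, 1789 of 18905 and 1554 of 18972. The fewer calls among the 35 genes therefore cannot be told apart from the loss of a replicate. Atg2a, Ulk1, Atg9a and Atg16l1 passed in each of the 6 fits that leave out 1 library. With Sms-OE replicates 2 and 3, the haemoglobin-rich libraries, both left out, Atg2a and Wipi2 passed, and 1384 of all genes were called in place of 4908. That fit has 1 Sms-OE library, which is assumed to vary like the 3 controls, so the loss of calls cannot be told apart from the loss of replicates. With a covariate, the mean log2 level of the hepatocyte and hepatoma markers, which was 0.60 to 1.31 in controls and -1.32 to -0.70 in Sms-OE relative to the mean of all libraries, 0 of the 35 genes and 0 of all genes passed in edgeR's test, and 4 of the 35 and 1520 of all genes had an unadjusted p under 0.05. The covariate and the groups cannot be told apart.

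The genes of the ULK initiation complex held 2 of the 10 rises among 5 members (40%, against 12.5% of all genes tested). Ulk1 (chromosome 5, 110784488 to 110810097, minus strand, GRCm38), the kinase that starts autophagy and is itself controlled by mTORC1 and AMPK, stood at 40.8, 52.7 and 44.1 CPM in controls and at 70.2, 82.0 and 73.0 in Sms-OE. Every Sms-OE library was above every control, and Ulk1 rose 1.64-fold (log2 0.71 ± 0.11 SE, adjusted p = 0.00185). Ulk2, its paralog, stood at 28.8, 28.3 and 31.5 CPM against 30.9, 30.8 and 27.3, with overlapping groups (log2 0.01 ± 0.10, adjusted p = 0.972). The log2 ratio of Ulk1 to Ulk2 within each library, which does not depend on scaling, was 0.63 ± 0.23 in controls and 1.34 ± 0.13 in Sms-OE (SD, n = 3 each; exact two-sided permutation p = 0.1, the smallest that 20 assignments allow, and 0.3 after Benjamini-Hochberg adjustment over 9 pairs).

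Rb1cc1, the scaffold of the ULK complex, stood at 44.9, 48.3 and 51.6 CPM in controls and at 54.3, 60.6 and 70.6 in Sms-OE. The groups were next to each other without overlap, and it rose 1.28-fold (log2 0.36 ± 0.11, adjusted p = 0.0364). Its call was lost in 5 of the 6 fits that leave out 1 library (adjusted p from 0.0224 to 0.138) and without the filter on low counts (0.0534). Its exons share 558 bases with an antisense gene on the other strand that held a mean of 284 counts against 2900 for Rb1cc1, and the strand setting of the counting is not given in the sources used here. The other members of the complex did not pass: Atg13, its adaptor, had a log2 fold change of -0.04 ± 0.11 (adjusted p = 0.823), and Atg101, the partner of ATG13, 0.19 ± 0.12 (adjusted p = 0.251).

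The class III PI3-kinase complex held no called gene among 3, against 26.9% of all genes tested called in either direction. Becn1, its scaffold beclin 1, stood at 119, 134 and 133 CPM in controls and at 122, 126 and 127 in Sms-OE. All Sms-OE values lay within the range of the controls (log2 -0.04 ± 0.08, adjusted p = 0.742). Pik3c3, the lipid kinase VPS34, had a log2 fold change of -0.02 ± 0.10 (adjusted p = 0.934). Atg14, the subunit that directs the complex to autophagy, was the lowest of the 3 at 5.58 to 7.05 CPM in controls and 4.29 to 5.88 in Sms-OE (log2 -0.29 ± 0.20, adjusted p = 0.315).

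Among the genes of membrane supply, lipid transfer and PI3P binding, 5 of 6 (83.3%) rose, against 12.5% of all genes tested. Their median transcript length was 4694.5 bases, and 26.3% of all genes above 4314 bases were called higher. With the length and GC offsets described further on, 4 of the 6 were called higher and 1 lower. Atg2a (chromosome 19, 6241668 to 6262335, plus strand), which encodes a protein that moves lipids from the endoplasmic reticulum into the growing membrane, stood at 83.5, 85.4 and 80.3 CPM in controls and at 148, 216 and 184 in Sms-OE. All Sms-OE libraries were far above the narrow range of the controls, and replicate 1 was the lowest of them. The rise was 2.2-fold (log2 1.14 ± 0.13, adjusted p = 0.000389), the largest among the 35 genes. Its paralog Atg2b stood at 29.0, 31.4 and 27.7 CPM against 36.8, 38.6 and 35.8. The groups did not overlap and the rise was 1.26-fold (log2 0.33 ± 0.10, adjusted p = 0.0280), though Atg2b no longer passed in any of the 6 fits that leave out 1 library (adjusted p from 0.0539 to 0.101). Its exons share 383 bases with Gskip on the other strand, which held a mean of 925 counts against 1757. The log2 ratio of Atg2a to Atg2b was 1.5 ± 0.05 in controls and 2.29 ± 0.25 in Sms-OE (SD, n = 3 each; exact permutation p = 0.1, adjusted 0.3).

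Atg9a (chromosome 1, 75180860 to 75192196, minus strand) encodes the transmembrane lipid scramblase of the vesicles that seed the membrane. It stood at 57.1, 60.5 and 53.6 CPM in controls and at 75.5, 91.7 and 98.5 in Sms-OE. The groups were well apart, and Atg9a rose 1.55-fold (log2 0.63 ± 0.11, adjusted p = 0.00270). Atg9b, the other ATG9 gene, was at 2.24, 2.02 and 3.29 CPM against 1.42, 1.55 and 1.16. Each Sms-OE library was below each control, in the opposite direction to Atg9a, but the difference did not pass (log2 -0.87 ± 0.30, adjusted p = 0.0540). Atg9b shares 294 exon bases with Nos3 on the other strand, which held a mean of 23.0 counts against 103.

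Both WIPI genes rose. Wipi1 stood at 6.34, 6.97 and 7.94 CPM in controls and at 11.3, 13.8 and 8.54 in Sms-OE, where replicate 3 was close to the highest control (1.58-fold, log2 0.66 ± 0.20, adjusted p = 0.0309). Wipi2, the WIPI protein that recruits ATG16L1 to the membrane, stood at 42.0, 41.4 and 38.8 CPM against 58.9, 49.5 and 51.6, with the groups apart (1.31-fold, log2 0.39 ± 0.10, adjusted p = 0.0148). Leaving out 1 library ended the call of Wipi1 in 5 of 6 cases (adjusted p from 0.0175 to 0.11) and that of Wipi2 in the 2 cases without control replicate 2 or 3 (0.0592 and 0.0596).

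The ATG8 family held the fall of Gabarap (20% of its 5 genes, against 14.3% of all genes tested) and no rise. Gabarap (chromosome 11, 69991143 to 69994951, plus strand), whose protein binds the ULK complex and cargo receptors on the membrane, stood at 444, 450 and 508 CPM in controls and at 353, 416 and 329 in Sms-OE. Every Sms-OE library was below every control, and Gabarap was 1.28-fold lower (log2 -0.35 ± 0.11, adjusted p = 0.0398). The call held without Sms-OE replicate 2 and was lost in the other 5 fits that leave out 1 library (adjusted p from 0.0167 to 0.126 over the 6). Gabarapl1 (log2 -0.14 ± 0.10, adjusted p = 0.323) and Gabarapl2 (-0.19 ± 0.11, adjusted p = 0.217) did not pass.

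Map1lc3b, which encodes LC3B, the usual marker protein of autophagosomes, stood at 201, 211 and 220 CPM in controls and at 234, 276 and 233 in Sms-OE. Its groups did not overlap, with replicate 2 the highest, but the difference did not pass (log2 0.24 ± 0.10, adjusted p = 0.0980). Map1lc3a, the other LC3 gene measured, stood at 6.18 to 8.03 CPM in controls and 7.94 to 9.34 in Sms-OE (log2 0.19 ± 0.17, adjusted p = 0.456). The log2 ratio of Gabarap to Gabarapl2 was 3.05 ± 0.08 in controls and 2.88 ± 0.07 in Sms-OE without overlap (exact permutation p = 0.1, adjusted 0.3), and it was among the 3 of 9 paralog ratios whose groups did not overlap, with those of Ulk1 to Ulk2 and Atg2a to Atg2b. The ratios of Map1lc3a to Map1lc3b (-4.84 ± 0.23 and -4.88 ± 0.01) and of Gabarapl1 to Gabarapl2 (-0.58 ± 0.23 and -0.53 ± 0.06) overlapped.

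Of the 11 genes of the ATG8 and ATG12 conjugation systems, 2 (18.2%) rose, near the 12.5% of all genes tested. Both encode the ATG16L proteins that place the conjugation complex on the membrane. Atg16l1 stood at 40.6, 39.6 and 40.4 CPM in controls and at 53.0, 50.4 and 58.1 in Sms-OE. The controls lay within a narrow band and all Sms-OE libraries above it (1.34-fold, log2 0.42 ± 0.09, adjusted p = 0.00746). Atg16l2, its less studied paralog, stood at 14.2, 14.4 and 16.8 CPM against 22.7, 20.1 and 18.8, with the groups close but apart (1.36-fold, log2 0.44 ± 0.13, adjusted p = 0.0292). The log2 ratio of Atg16l1 to Atg16l2 was 1.41 ± 0.14 in controls and 1.39 ± 0.21 in Sms-OE, with overlap (exact permutation p = 0.9). The call of Atg16l2 was lost in 4 of the 6 fits that leave out 1 library (adjusted p from 0.0361 to 0.118).

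The enzymes and substrates of conjugation did not pass. Atg5, the protein joined to ATG12, stood at 38.0, 36.0 and 41.4 CPM in controls and at 32.1, 32.1 and 30.9 in Sms-OE. Every Sms-OE library was below every control, at an adjusted p just above the threshold (log2 -0.28 ± 0.09, adjusted p = 0.0527). Atg7, the activating enzyme of both systems, stood at 79.0, 80.3 and 71.5 CPM against 69.4, 74.1 and 53.5. Its groups overlapped, with Sms-OE replicate 3 the lowest (log2 -0.23 ± 0.12, adjusted p = 0.195). Atg10, which carries ATG12 to ATG5, was low, at 3.81 to 4.83 CPM in controls and 2.47 to 3.07 in Sms-OE, again without overlap (log2 -0.61 ± 0.22, adjusted p = 0.0631). Atg3, which carries LC3 to its lipid, had a log2 fold change of -0.26 ± 0.14 (adjusted p = 0.205) and Atg12 one of 0.04 ± 0.10 (adjusted p = 0.811).

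The ATG4 proteases, which trim ATG8 proteins before conjugation and release them afterwards, lay between log2 -0.24 ± 0.16 for Atg4a and 0.03 ± 0.09 for Atg4d, and 0 of the 4 passed (adjusted p from 0.286 to 0.955). Atg4d shares 1405 exon bases with Kri1 on the other strand, which held a mean of 1365 counts against 1903. Atg4a-ps stood at 0.69 to 1.29 CPM in controls and 0.56 to 0.93 in Sms-OE (log2 -0.55 ± 0.41, adjusted p = 0.364). The log2 ratios of Atg4a to Atg4b (-1.2 ± 0.20 and -1.36 ± 0.21) and of Atg4c to Atg4d (-1.98 ± 0.28 and -2.04 ± 0.23) overlapped between the groups.

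All 4 cargo receptors had a positive log2 fold change, and 1 passed (25%, against 12.5% of all genes tested called higher). Optn, whose protein optineurin links ubiquitin-tagged mitochondria and bacteria to LC3, stood at 29.4, 27.1 and 30.3 CPM in controls and at 35.7, 44.1 and 35.0 in Sms-OE. All Sms-OE libraries were above the controls, with replicate 2 the highest (1.32-fold, log2 0.40 ± 0.11, adjusted p = 0.0270). The call was lost in 4 of the 6 fits that leave out 1 library (adjusted p from 0.0362 to 0.118). Sqstm1 (chromosome 11, 50199366 to 50210827, minus strand), which encodes p62, the receptor for ubiquitin-tagged aggregates, stood at 430, 444 and 486 CPM in controls and at 535, 652 and 491 in Sms-OE. Its groups did not overlap, but Sms-OE replicate 3 was next to the highest control, and the difference did not pass (log2 0.30 ± 0.12, adjusted p = 0.0859). Tax1bp1, a receptor that acts with p62, also lacked overlap without passing (log2 0.25 ± 0.10, adjusted p = 0.107), and Nbr1, the p62-like receptor, overlapped (0.06 ± 0.08, adjusted p = 0.651).

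**Figure D2:**
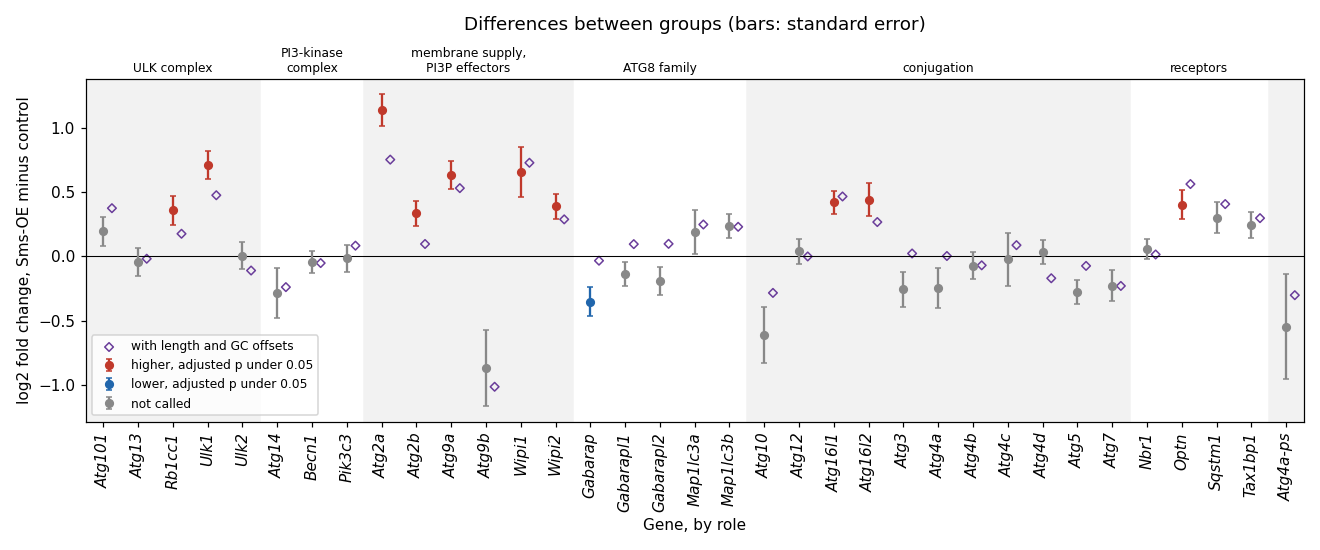
Log2 fold change of each gene in Sms-OE against control, by role, with bars of 1 standard error from edgeR's quasi-likelihood fit, and with colours for genes called higher, called lower or not called; open diamonds give the value with offsets for transcript length and GC content, described further on. Called rises lie from Atg2b at 0.33 to Atg2a at 1.14, and 5 of the 6 genes of membrane supply, lipid transfer and PI3P binding are among them. With the offsets, 4 of those 6 were called higher and 1 lower, against 11.5% and 9.62% of all genes tested.

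Levels differed widely among the genes. Per kilobase of the longest annotated transcript, Gabarap was the most abundant in controls at 346 ± 26.1 CPM per kb (SD, n = 3), followed by Sqstm1 at 170 ± 10.9. Atg3 at 55.8 ± 9.13, Tax1bp1 at 55.7 ± 4.68 and Map1lc3b at 50.9 ± 2.26 did not differ beyond their spread. Gabarapl2 (33.7 ± 3.99) and Becn1 (29.5 ± 1.97) came next, also within their spread of each other. Ulk1 was at 8.79 ± 1.18, Atg2a at 13.0 ± 0.404 and Atg9a at 13.5 ± 0.812 CPM per kb, the last 2 within their spread. At the low end were Atg9b at 0.645 ± 0.174 and Atg4a-ps at 0.496 ± 0.151. Which transcript is used matters for the order: with the median transcript length of each gene, Gabarap (555) and Sqstm1 (476) stayed on top, but Tax1bp1 (253) and Becn1 (164) stood above Map1lc3b (83.1) and Atg3 (56.2 CPM per kb).

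The fold changes of these genes went with the length of their transcripts. Over the 35 genes the Spearman correlation of log2 fold change with the length of the longest transcript was 0.52, and over 18253 tested genes it was 0.17. Both describe genes in the same 6 libraries, which are not independent replicates. Among all tested genes, 5.10% of the shortest quartile were called higher and 17.7% lower, whereas in the longest quartile (above 4314 bases) 26.3% were called higher and 7.26% lower. Of the 35 genes 11 fell in that longest quartile, and 6 of those 11 rose: Atg2a, Ulk1, Wipi2, Atg16l2, Atg2b and Rb1cc1. Gabarap, at 1351 bases, was among the 3 genes in the shortest quartile. The median transcript of the 35 genes was 3751 bases long, against 2817 over all tested genes.

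With offsets for transcript length and GC content fitted in each library, 9 of the 35 genes were called higher and 1 lower, against 11.5% and 9.62% of all tested genes. The correlation with length was then 0.12, and the median log2 fold change was 0.09 against 0.06 over all genes. Of the 10 rises, 7 remained: Atg2a (log2 0.75, adjusted p = 0.00388), Ulk1 (0.48, 0.0177), Atg9a (0.53, 0.00527), Atg16l1 (0.47, 0.00471), Optn (0.56, 0.00738), Wipi1 (0.73, 0.0291) and Wipi2 (0.29, 0.0377). Atg2b (0.10, adjusted p = 0.503), Rb1cc1 (0.18, 0.271) and Atg16l2 (0.27, 0.178) did not pass, nor did Gabarap (-0.03, 0.826). Genes that passed with the offsets but not without correction were Sqstm1 (0.41, adjusted p = 0.0382) and Atg101 (0.38, 0.0418), both higher, and Atg9b (-1.02, 0.0439), lower.

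**Figure D3:**
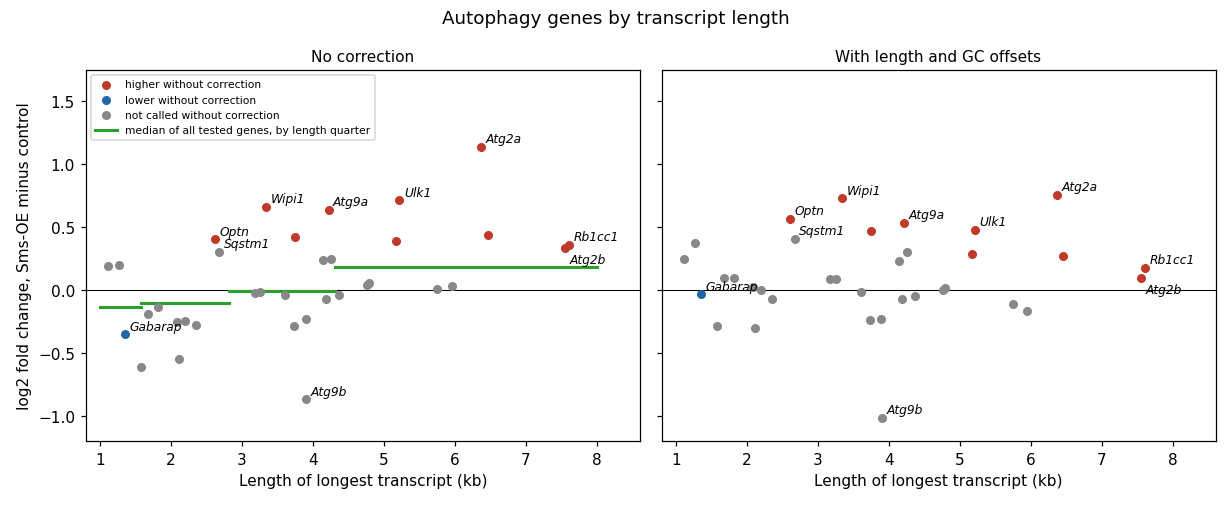
Log2 fold change of each gene against the length of its longest transcript in kilobases, without correction at the left and with length and GC offsets at the right, coloured by the call without correction; green lines mark the median over all tested genes in each quartile of length. At the left the called rises lie mostly above 3 kb and Gabarap near 1.4 kb; at the right Gabarap, Atg2b and Rb1cc1 lie closer to 0 and Atg2a remains the highest.

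Other genes of the pathway, 71 regulators and partners, showed both directions. Of the 70 tested, 17 (24.3%) rose and 8 (11.4%) fell, against the 12.5% and 14.3% of all genes. Their median log2 fold change was 0.07. The count of 17 was 9, 6 and 8 without control replicate 1, 2 or 3, 12 without Sms-OE replicate 1, and 9 and 8 without Sms-OE replicate 2 or 3. With offsets it was 15, and the count of 8 was 6, with genes both lost and gained. Rises lost were Stx17, Vps18, Epg5, Trp53inp2, Ambra1, Uvrag and Foxo1, and rises gained were Bnip3, Rab7, Wdr45b, Tollip and Rab5a. Falls lost were Lamp1, Ei24, Vps41 and Stbd1, and falls gained were Mtor and Bcl2. Over all genes, rises numbered 2293 with all libraries and 1366 to 2015 in the fits that leave out 1 library. With offsets, 11.5% of all genes were called higher and 9.62% lower.

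Of 12 upstream kinases and regulators 1 (8.33%) rose, against 12.5% of all genes tested. It was Sesn2, the leucine-sensing stress protein sestrin 2, from 63.6 ± 4.56 to 90.3 ± 8.95 CPM (SD, n = 3 each; log2 0.51 ± 0.10 SE, adjusted p = 0.00517). Mtor and the AMPK subunits did not pass. With the length and GC offsets Mtor passed as lower (log2 -0.38, adjusted p = 0.0156), and the AMPK subunits did not pass. Of 6 transcription factors 2 (33.3%) rose, both forkhead factors that can activate autophagy genes: Foxo3 went from 126 ± 2.56 to 183 ± 24.7 CPM (log2 0.54 ± 0.10, adjusted p = 0.00482) and Foxo1 was the other. With length and GC offsets Foxo3 was at log2 0.30 and passed, and Foxo1 was at 0.23 and did not (adjusted p = 0.221). The factors that bind the CLEAR motif did not pass. Tfeb, the main one of them, was at 55.7, 56.4 and 51.7 CPM in controls and at 43.7, 59.8 and 64.7 in Sms-OE, on both sides of the controls (log2 0.04 ± 0.13, adjusted p = 0.866). Tfe3 had a log2 fold change of 0.20 ± 0.09 (adjusted p = 0.134) and Mitf one of 0.14 ± 0.12 (adjusted p = 0.443).

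Among 10 partners of the PI3-kinase complex 2 (20%) rose, Uvrag and Ambra1, and 1 (10%) fell, against 12.5% and 14.3% of all genes tested. The fall was that of Rubcnl, also called Pacer, which promotes autophagosome maturation, from 11.7 ± 1.41 to 6.53 ± 0.446 CPM (log2 -0.84 ± 0.16, adjusted p = 0.00423). Of 11 further membrane and PI3P proteins 5 (45.5%) rose and 1 (9.09%) fell. Wdfy3, the large scaffold ALFY for aggregate removal, went from 43.1 ± 7.84 to 79.7 ± 11 CPM (log2 0.89 ± 0.14, adjusted p = 0.00215). Tecpr1, which binds ATG5 and autophagosomes, went from 31.5 ± 0.862 to 49.5 ± 4.09 (log2 0.65 ± 0.10, adjusted p = 0.00137), and Snx18, a membrane-remodelling sorting nexin, from 154 ± 8.92 to 210 ± 4.12 (log2 0.44 ± 0.08, adjusted p = 0.00414). Ei24, a protein of the endoplasmic reticulum, went from 36.8 ± 1.56 to 28.0 ± 1.37 (log2 -0.39 ± 0.09, adjusted p = 0.0131). With the offsets Wdfy3 (log2 0.42) and Tecpr1 (0.41) were nearer to 0 and passed, and Ei24 (-0.19, adjusted p = 0.141), Uvrag (0.18, 0.0894) and Ambra1 (0.20, 0.198) did not pass. Ei24 also missed the threshold with library size alone (adjusted p = 0.0643).

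Of the 17 other receptors and adaptors tested, 4 (23.5%) rose and 3 (17.6%) fell, against 12.5% and 14.3% of all genes tested. Mitophagy receptors stood on both sides. Phb2, a receptor of the inner mitochondrial membrane, fell from 114 ± 8.14 to 72.8 ± 1.13 CPM (log2 -0.64 ± 0.08, adjusted p = 0.000790). Fundc1, a receptor of the outer membrane, fell from 34.5 ± 5.18 to 19.3 ± 2.08 (log2 -0.84 ± 0.13, adjusted p = 0.00207). Bnip3l, also a mitophagy receptor, was among the genes that rose. Bnip3 did not pass, though its groups did not overlap (log2 0.32 ± 0.11, adjusted p = 0.0607). With the offsets both passed as higher (Bnip3 0.62, Bnip3l 0.52). The share of counts from mitochondrial genes was lower in the Sms-OE libraries, as given above, and a link to these receptors was not tested. Of 14 genes for fusion with lysosomes 3 (21.4%) rose and 3 (21.4%) fell. Plekhm1, an adaptor for fusion, went from 54.7 ± 1.87 to 76.1 ± 4.03 CPM (log2 0.48 ± 0.08, adjusted p = 0.00298). Vamp8, a SNARE of fusion, went from 207 ± 16.8 to 143 ± 10.04 (log2 -0.54 ± 0.09, adjusted p = 0.00314), and Vps41, a subunit of the HOPS tethering complex, from 47.3 ± 1.70 to 37.4 ± 2.33 (log2 -0.34 ± 0.09, adjusted p = 0.0206). The call of Vps41 was lost without control replicate 1, 2 or 3 or Sms-OE replicate 3 (adjusted p from 0.0504 to 0.0616), with library size alone (0.101) and with the offsets (-0.24, 0.0622). With the offsets Fundc1 (log2 -0.54), Plekhm1 (0.24) and Vamp8 (-0.32) were nearer to 0 and passed. Foxo1, Uvrag, Ambra1, Bnip3l and the other pathway genes listed as lost or gained with the offsets are named here after their values were seen.

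**Figure D4:**
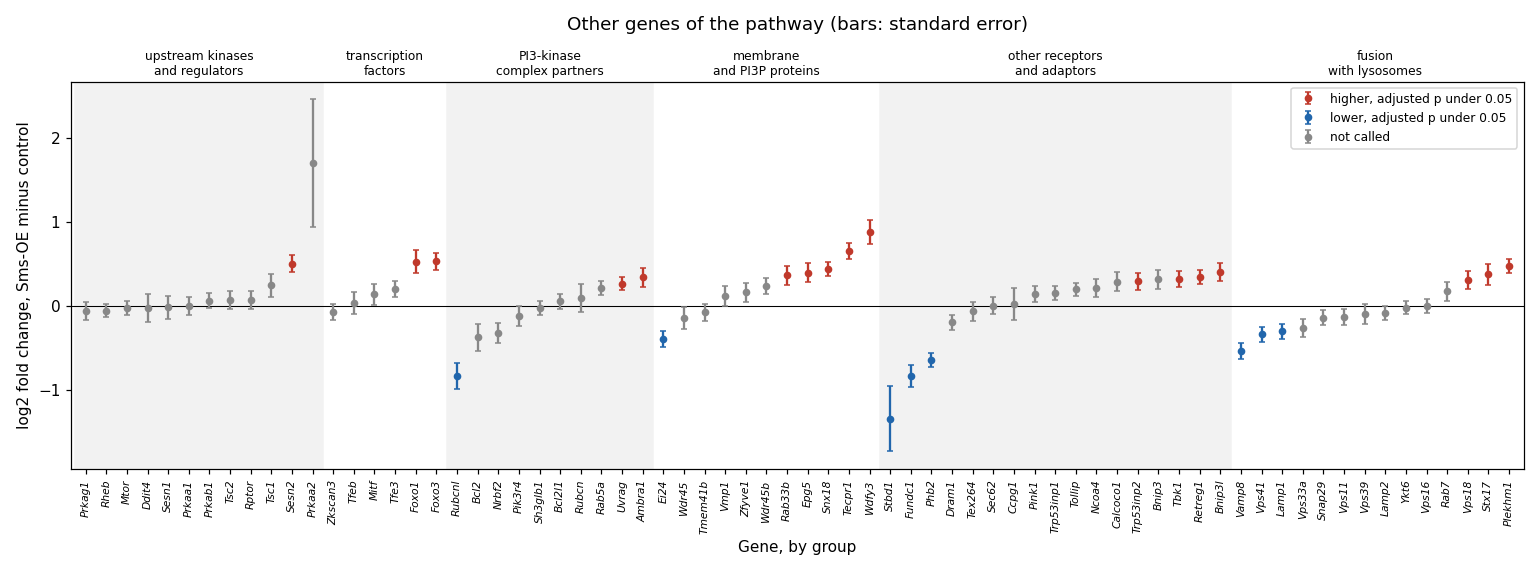
Log2 fold change of the 70 other pathway genes in Sms-OE against control, by group, with bars of 1 standard error; red marks genes called higher, blue genes called lower and grey those not called. Called genes of both directions stand in the groups of PI3-kinase complex partners, membrane proteins, receptors and fusion with lysosomes, and Wdfy3 at 0.89 is the highest called.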

How the data were processed

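The authors deposited 1 table of estimated counts per gene, as whole numbers, for 3 control and 3 Sms-OE libraries. Per the labels' protocols, libraries were made by oligo(dT) selection with dUTP and UDG, which mark the strand. HISAT2 2.2.1, StringTie 2.1.6, cutadapt 1.9, DESeq2 and FastQC 0.11.9 were used, per the submitters' processing notes. Genome build, annotation and strand setting were not given in the sources used here. More genes held the value 4 than 2, 3 or 5 (1008 against 741, 580 and 352 in control replicate 1), so counting error is uncertain. Symbols, coordinates and lengths came from GENCODE M21 (GRCm38) by identifier, and 260 of 55401 rows, with at most 0.0125% of a library's counts, had none. At most 17.3% of genes held identical counts in any pair of libraries.

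Sample titles gave the groups and the replicate numbers. Genes were tested with edgeR 4.0.16 in R 4.3.3 (TMM factors, low counts removed by filterByExpr, robust quasi-likelihood fit, Benjamini-Hochberg over 18277 genes, threshold 0.05). Log2 fold changes are Sms-OE minus control, and CPM use TMM-scaled library sizes. Paralog ratios used CPM with 0.5 counts added. Alternatives were other scalings and filters, DESeq2 1.42.0, limma 3.58.1 (voom with quality weights), a replicate block, length and GC offsets, a hepatocyte and hepatoma covariate, and leaving out libraries. Leaving out both haemoglobin-rich libraries was chosen after seeing the data.

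The genes and lists were chosen with earlier results of these data known. Values per library are given for each of the 35 genes past the threshold and for Ulk1, Becn1, Atg5, Atg7, Map1lc3b and Sqstm1. Values are also given for the 6 genes of smallest p in each direction of the other pathway genes, with Tfeb, Tfe3 and Mitf. The steps were tested on simulated counts of this comparison (17718 genes), in which 55, 70 and 64 genes were changed by log2 0.5, 1 and 2. The test recovered 10.9%, 60.0% and 84.4% of these genes, with 13.6% of the calls being false. The share of genes changed there was far below the 26.9% called in the data. Both rates depend on that share, so they may not hold for the data.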

Additional observations from a re-analysis of the deposited data

How the results depend on the processing

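Of the 10 rises, Atg2a, Ulk1, Atg9a and Atg16l1 held in every fit run with all libraries or with 1 left out, except that with the hepatocyte and hepatoma covariate. Over fits leaving out 1 library, the 35 genes gave 4 to 8 rises and 0 to 1 falls, the other pathway genes 6 to 12 rises and 5 to 8 falls, and the median log2 fold change of the 35 was 0.00695 to 0.0797. All tested genes gave 1366 to 2015 rises and 1684 to 2473 falls in those fits, against 2293 and 2615 with all libraries. With library size alone, 58.5% of called genes over the whole table were higher, against 46.7%. The 35 then gave 13 rises and 1 fall, the other pathway genes 5 falls, and the median was 0.0967. The rises gained in edgeR's test were Sqstm1 (adjusted p = 0.0234), Map1lc3b (0.03) and Tax1bp1 (0.0302). The DESeq2 Wald test gained Sqstm1 (0.0341) as a rise and Atg9b (0.0413) and Atg10 (0.043) as falls. With voom Atg10 (0.0455) was gained as a fall. DESeq2 size factors gave 0 falls and a median of 0.0514, upper-quartile factors 0 falls and 0.0655, the DESeq2 Wald test 3 falls and 0.0514, voom 2 falls and 0.0576, the offsets a median of 0.0875, and no low-count filter 9 rises among the 35 (Rb1cc1 lost), 11 of other pathway genes and a median of 0.0139. The covariate gave 0 rises and 0 falls in both lists and a median of 0.17; without Sms-OE replicates 2 and 3, which leaves 1 library in that group, there were 2 rises and 0 falls, 3 and 1 for the other genes, and a median of 0.0795. The cause of these shifts was not tested.

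The replicate block gave 7 rises and 0 falls among the 35 genes and 13 and 7 among the others, losing Atg16l2, Gabarap, Optn and Wipi1. Deviations of same-numbered libraries correlated at 0.07, 0.02 and -0.01, so the numbers were not taken as pairs, and not every library correlated best with its own number.

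Signs of log2 fold change turned for genes that had not passed, and with the covariate for Gabarap (0.23) and Vamp8 (0.0224), which had. With the covariate these were also Atg13 (0.10), Atg3 (0.93), Atg4b (0.19), Atg4d (-0.12), Atg5 (0.00116), Atg7 (0.15), Atg9b (0.51), Becn1 (0.11), Gabarapl2 (0.39), Tfeb (-0.69), Tfe3 (-0.22) and Mitf (-0.18). With offsets they were Atg12 (-0.000565), Atg3 (0.0226), Atg4a (0.00296), Atg4c (0.0875), Atg4d (-0.17), Gabarapl1 (0.0955), Gabarapl2 (0.0977), Pik3c3 (0.0836), Ulk2 (-0.11) and Tfeb (-0.0618). With library size alone they were Atg13 (0.0286), Atg4c (0.0417), Becn1 (0.0219) and Pik3c3 (0.0462). Pik3c3 turned with DESeq2 size factors (0.00561), the DESeq2 test (0.00554) and upper-quartile factors (0.0208), Atg4c with the last (0.0121) and voom (0.0586), and Ulk2 without the filter (-0.0118). Without Sms-OE replicates 2 and 3 they were Atg4b (0.0795), Atg4c (0.0732) and Tfeb (-0.33). Leaving out 1 library gave ranges across 0 for Atg12 (-0.0234 to 0.0982), Atg13 (-0.11 to 0.00629), Atg4c (-0.15 to 0.15), Atg4d (-0.00910 to 0.0771), Pik3c3 (-0.0697 to 0.0423), Ulk2 (-0.0351 to 0.0582) and Tfeb (-0.0826 to 0.18), and for the difference in log2 ratio of Atg16l1 to Atg16l2 (-0.14 to 0.0623), Atg4c to Atg4d (-0.16 to 0.10), Gabarapl1 to Gabarapl2 (-0.0818 to 0.12) and Map1lc3a to Map1lc3b (-0.16 to 0.0625).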

Other observations

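Across the 6 libraries, 10 of the 35 autophagy genes had their highest level in Sms-OE replicate 2, where 19.9% of all tested genes had theirs, and 9 had their lowest level in Sms-OE replicate 3, against 20.4% of all tested genes. Control replicate 3 held the highest level of 8 of the 35 genes (19.3% of all tested genes). Control replicate 1 held the lowest level of 8 (18.7% of all tested genes). In the other direction, Sms-OE replicate 2 held the lowest level of 6 (19.7%) and Sms-OE replicate 3 the highest level of 5 (17.4%). Sms-OE replicates 2 and 3 are the libraries with the most haemoglobin counts, and a link between the 2 was not tested.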
